A study of Homo sapiens with 31 samples.

Results

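The sites described here are genomic intervals away from promoters at which CTBP2 was still called after induction of a competitor of its contact with EVI1. They were taken from the peak lists of MUTZ3 cells that carried an inducible 4xPLDLS construct. Overlapping CTBP2 peaks were merged, and an interval was kept if CTBP2 was called in both untreated libraries and in both doxycycline (dox) libraries, if it overlapped an EVI1 peak in both untreated EVI1 libraries, and if the CTBP2 summit of untreated replicate 1 lay over 1 kb from every protein-coding transcription start site (TSS). Intervals with a peak in all 13 lists were dropped. Of 37227 CTBP2 sites called in both untreated libraries, 14297 (38.4%) were called in both dox libraries, 30643 overlapped EVI1 in both untreated libraries, and 19565 of these EVI1-CTBP2 sites were distal. Of the distal EVI1-CTBP2 sites, 8487 kept a CTBP2 peak in both dox libraries, 3921 in 1 of them and 7157 in neither. Dropping 2152 intervals present in every list left 6335 sites, which are called resistant distal sites here. The sites were thus chosen by their CTBP2 calls in all 4 CTBP2 libraries and their EVI1 calls in the untreated ones, so CTBP2 values and untreated EVI1 calls are given as a description and carry no test.

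EVI1 is a zinc finger transcription factor encoded by MECOM, a gene that is overexpressed in myeloid leukemia with rearrangement of chromosome band 3q26. CTBP1 and CTBP2 are corepressors that do not read DNA sequence themselves but are brought to chromatin by transcription factors with a short PxDLS-type motif, and they carry histone deacetylases, demethylases and methyltransferases with them. EVI1 has such a motif, PLDLS, and so do other DNA-binding proteins, among them ZEB1 and ZEB2, which bind E-boxes of the form CACCTG. A peptide with 4 copies of PLDLS occupies the same pocket of CTBP and competes with these proteins, whereas in 4xPLASS the motif is mutated.

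MUTZ3 is an acute myelomonocytic leukemia line. In the inducible experiment MUTZ3 cells carried the lentiviral construct pCW-4xPLDLS as a transduced population and were either left untreated or given dox for 72 h, with 2 CTBP2 and 2 EVI1 libraries per treatment and 1 input per treatment, all after double crosslinking with DSG. The dox groups therefore differ from the untreated groups in dox itself as well as in the peptide, and these cannot be told apart here. The other lists came from 1 EVI1 library (DSG) and 1 CTBP2 library (single crosslink) of MUTZ3 cells labelled wild type, 1 CTBP2 library (DSG) of MOLM1, a line labelled as chronic myeloid leukemia in blast crisis that carried an uninduced dox-dependent shRNA to EVI1, and 2 CTBP2 libraries (DSG) of MUTZ3 cells with the retroviral control p50MX-3xFLAG-3xNLS-4xPLASS-Zeo. Chromatin immunoprecipitation with sequencing was the only assay, and each list holds the peaks of 1 library against its input.

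The lists differed in size. The 4 EVI1 lists of the inducible experiment held 47599 to 72214 peaks, the untreated CTBP2 lists 62232 and 56526, and the dox CTBP2 lists 24588 and 23878. The other lists held 6688 to 64569 peaks, and the 2 replicates of 4xPLASS stood far apart, at 6688 and 31310. The lists carry no read totals. How deeply each library was sequenced is therefore not known, and a missing peak means only that none was called.

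The sequences that follow are examples from the named sites, picked to show the motifs that the results below turn on, and are not typical of all 6335 sites. They are 61 reference bases (hg19, plus strand) centred on the CTBP2 summit of untreated replicate 1. Capitals mark a match, on either strand, to a fixed set of short motifs. These include AGGAAG, bound by ETS factors, AGATAA, bound by GATA factors, TGTGGT, bound by RUNX factors, CACCTG, the E-box bound by ZEB proteins, CAGCTG, an E-box of other helix-loop-helix proteins, and the other motifs spelled out with the motif shares. The first set shows sites with strong CTBP2, EVI1 that was low relative to CTBP2, and repeated CACCTG.
ID2 (chr2:8641085-8641145): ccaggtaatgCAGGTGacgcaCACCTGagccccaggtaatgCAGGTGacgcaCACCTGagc
ZFP64 (chr20:51041049-51041109): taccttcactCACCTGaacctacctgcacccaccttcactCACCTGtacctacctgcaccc
TRAF3IP3 (chr1:209944224-209944284): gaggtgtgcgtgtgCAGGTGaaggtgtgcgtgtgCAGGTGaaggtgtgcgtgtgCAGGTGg
LPCAT1 (chr5:1545712-1545772): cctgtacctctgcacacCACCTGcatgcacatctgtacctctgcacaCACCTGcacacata
PARP12 (chr7:139709683-139709743): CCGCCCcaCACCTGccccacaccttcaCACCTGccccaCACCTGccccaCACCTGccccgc
The second set shows sites at which EVI1 was about as strong as CTBP2 or stronger, with ETS, RUNX, GATA or CEBP letters at the summit, and, for FABP6, none of these letters in the 61 bases.
MRGBP (chr20:61408467-61408527): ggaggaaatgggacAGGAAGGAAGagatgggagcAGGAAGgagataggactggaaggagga
CSF2RA (chrX:1411666-1411726): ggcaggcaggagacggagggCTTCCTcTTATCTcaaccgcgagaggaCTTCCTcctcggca
LCOR (chr10:98549494-98549554): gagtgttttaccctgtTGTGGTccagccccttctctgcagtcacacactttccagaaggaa
CEBPB (chr20:48964838-48964898): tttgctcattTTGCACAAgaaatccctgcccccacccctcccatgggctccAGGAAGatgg
FABP6 (chr5:159624827-159624887): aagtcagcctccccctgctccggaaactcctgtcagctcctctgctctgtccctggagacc
Each site is named by the gene with the nearest protein-coding TSS, which need not be a gene that the site controls.

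At the resistant distal sites the CTBP2 peaks remained but were lower with dox. The median fold enrichment over input was 10.5 and 9.31 in the untreated CTBP2 libraries and 5.29 and 5.77 in the dox libraries. Both dox values lay below both untreated values at 4514 of the 6335 sites (71.3%), and above both at 141. This share was close to that over all CTBP2 sites with a peak in the 4 libraries (72.5%), so the lower values were not particular to the members. Those sites include the members, and sites without a CTBP2 peak in both dox libraries cannot enter the comparison. The median log2 ratio of dox to untreated was -0.79 (interquartile range -1.18 to -0.39) at the resistant distal sites and -0.86 over all 14297 sites. Within each list, ranked from 0 for the weakest to 100 for the strongest peak, the sites' median CTBP2 percentile was 80.9 and 83.1 untreated and 61.0 and 59.4 with dox. With dox the sites' median fold enrichment was only a little above that of the whole lists, 4.84 and 5.34.

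Whether a distal EVI1-CTBP2 site kept CTBP2 went with its strength before dox. Of the 19565 sites, 54.2% had a CTBP2 peak in the first dox library and 52.6% in the second (53.4% ± 1.09, SD, n = 2 libraries), and 43.4% in both. With the inducible lists cut to equal size, by keeping the strongest peaks of each, the share in both was 66.6%. The cut also took weaker untreated sites out of the denominator, so the level depends on which peaks the lists hold. In 5 groups of equal size, from the highest to the lowest CTBP2 fold enrichment in untreated replicate 1, the share kept in both dox libraries was 85.2%, 51.6%, 34.3%, 25.9% and 19.9%. The 10731 promoter EVI1-CTBP2 sites, with the summit within 1 kb of a TSS, gave 64.7% and 52.5% in the 2 dox libraries (58.6% ± 8.69, SD, n = 2 libraries) and 46.4% in both. The distal and promoter shares in dox replicate 2 were nearly equal, and the gap in dox replicate 1 was no larger than the distance between the 2 dox libraries at promoters. Of 5906 distal CTBP2 sites that did not have EVI1 in both untreated lists, 670 (11.3%) kept CTBP2 in both dox libraries. These 5906 were weaker before dox, at a median fold enrichment of 5.40 against 8.28 for the distal EVI1-CTBP2 sites in untreated replicate 1. The strongest of 5 equal groups of the 5906 had a median of 8.22, and 16.4% of it kept CTBP2 in both dox libraries. The third group of distal EVI1-CTBP2 sites, at a median of 8.28, kept it at 34.3%, a difference that was not tested.

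**Figure D1:**
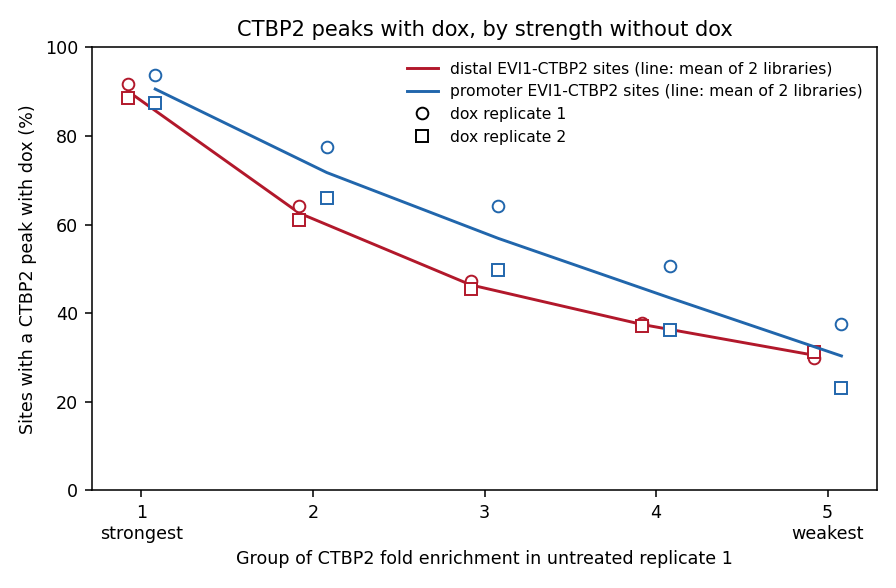
The plot shows the percentage of EVI1-CTBP2 sites with a CTBP2 peak in each dox library (circles, replicate 1, and squares, replicate 2) and their mean (line), by group of CTBP2 fold enrichment in untreated replicate 1, for distal (red) and promoter (blue) sites. In both kinds the mean share runs from about 90% in the strongest group (90.1% distal, 90.6% promoter) to about 30% in the weakest (30.5% distal, 30.3% promoter).

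The 10 sites with the highest CTBP2 percentile with dox included both CTBP2-rich and EVI1-rich sites. The strongest was an intergenic site on chr2:8640705-8641532, 177860 bp from the TSS of ID2, an inhibitor of helix-loop-helix transcription factors. There CTBP2 fold enrichment was 91.4 and 76.7 untreated and 42.5 and 31.1 with dox, and EVI1 fold enrichment was 7.86 and 11.8 untreated and 7.78 and 3.95 with dox. CTBP2 was thus several times as enriched as EVI1 in every pair of libraries, and its dox values lay below both untreated ones. An intergenic site 232761 bp from ZFP64 (chr20:51039850-51041474) had the same form, with CTBP2 at 58.1 and 45.6 untreated and 34.6 and 30.5 with dox against EVI1 at 5.17 and 8.75 untreated and 6.37 and 4.98 with dox. So did an intron of TRAF3IP3 (chr1:209942618-209945577), where CTBP2 was 55.7 and 34.9 untreated and 24.7 and 23.1 with dox, and EVI1 7.86 and 9.57 untreated and 6.57 and 4.48 with dox. All of these sites also had a CTBP2 peak in each of the 4 CTBP2 lists outside the inducible experiment and no EVI1 peak in the unmodified MUTZ3 list.

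EVI1 was the stronger signal at others of the 10. An intron of FABP6, which encodes an intestinal bile acid-binding protein, carried the third strongest EVI1 peak of untreated replicate 2 (chr5:159624021-159627128). Its EVI1 fold enrichment was 85.3 and 123 untreated and 61.4 and 55.1 with dox, and its CTBP2 fold enrichment was 64.4 and 61.2 untreated and 23.3 and 24.3 with dox. The dox values of both proteins lay below the untreated ones. An intergenic site 19328 bp from MRGBP, a subunit of the NuA4 acetyltransferase complex, had CTBP2 at 41.5 and 33.6 untreated and 21.0 and 29.5 with dox, and EVI1 at 47.5 and 66.2 untreated and 41.8 and 46.1 with dox. In an intron of AHR, the aryl hydrocarbon receptor, CTBP2 was 26.7 and 46.3 untreated and 23.6 and 29.0 with dox, and EVI1 was 38.7 and 37.5 untreated and 49.1 and 46.3 with dox (nearest TSS AGR3). Here the CTBP2 groups overlapped and both EVI1 dox values lay above the untreated ones.

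Some strong sites differed more between replicates than between treatments. At a site in an intron of FAT3, an atypical cadherin, CTBP2 was 14.4 in untreated replicate 1 and 41.8 in replicate 2, against 23.0 and 30.2 with dox. EVI1 at this site was 42.6 in untreated replicate 1 and 20.2 in replicate 2. A site 80208 bp from FAM171A1 showed the same split, with CTBP2 at 9.72 and 38.4 and EVI1 at 31.2 and 7.37 in untreated replicates 1 and 2, so neither site can be read as higher or lower with dox. A site 266742 bp from CDH26, another cadherin, held CTBP2 at 20.2 and 24.2 untreated and 23.6 and 23.4 with dox, with overlapping groups, while EVI1 was 3.45 and 4.01 untreated and 8.38 and 8.36 with dox. The last of the 10, near SPACA7, had CTBP2 at 53.7 and 32.5 untreated and 28.2 and 22.2 with dox, and short stretches of its summit sequence occur up to 71 times in the genome.

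**Figure D2:**
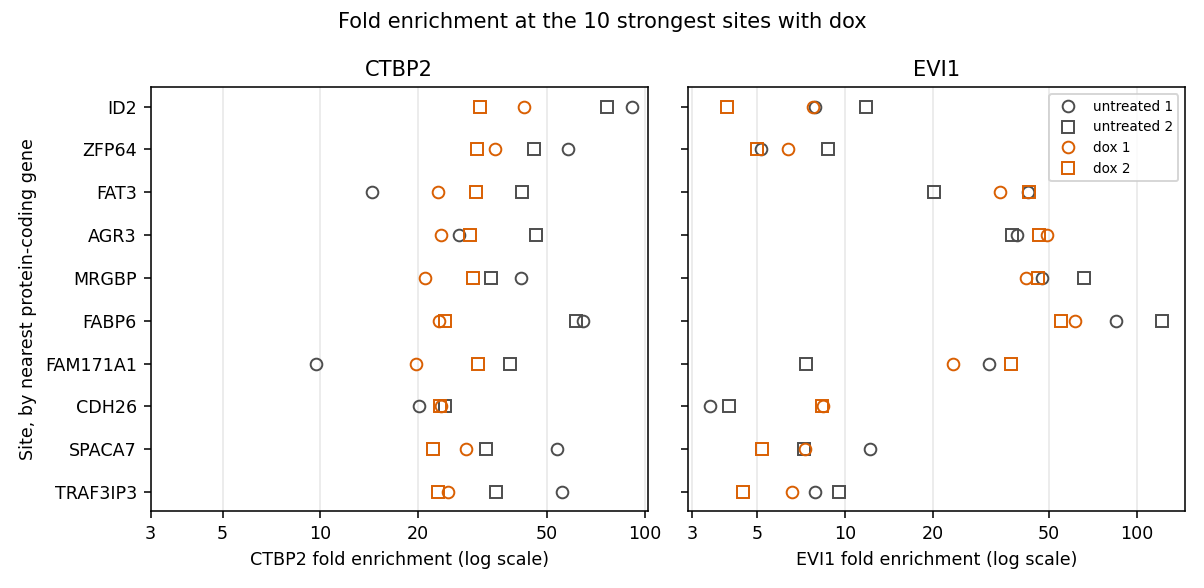
The plot shows CTBP2 (left) and EVI1 (right) fold enrichment on log axes in each untreated (grey) and dox (orange) library at the 10 sites with the highest CTBP2 percentile with dox, circles for replicate 1 and squares for replicate 2. ID2, ZFP64, CDH26, SPACA7 and TRAF3IP3 have CTBP2 far above EVI1, whereas EVI1 exceeds 30 in every library at FABP6, MRGBP and AGR3, and the untreated CTBP2 replicates of FAT3 and FAM171A1 lie far apart.

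EVI1 stayed at nearly all of the resistant distal sites. The first dox library had an EVI1 peak at 98.3% of them and the second at 97.4% (97.9% ± 0.64, SD, n = 2 libraries), and in both at 6115 sites (96.5%), while of all 40449 EVI1 sites shared by both untreated EVI1 libraries 78.1% had one in both dox libraries. At the 7157 lost distal sites, where CTBP2 was called in neither dox library, the shares were 81.8% and 70.2% (76.0% ± 8.25, SD, n = 2 libraries). The lost sites had weaker peaks before dox, with median CTBP2 fold enrichment 6.67 and 5.33 and median EVI1 fold enrichment 5.93 and 7.31, against 9.77 and 11.8 for EVI1 at the resistant distal sites. Within the 5 groups of CTBP2 strength the resistant share exceeded the lost share in both dox libraries, by 4.82 to 30.6 percentage points, but these groups do not match the sites on EVI1 strength, whose part in the difference was not tested.

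The median EVI1 percentile of the resistant distal sites differed between treatments by less than the spread between libraries. It was 79.4 and 83.8 untreated and 80.5 and 78.6 with dox, a difference of -2.01 with overlapping groups (two-sided exact permutation test, p = 0.667, Benjamini-Hochberg adjusted p = 0.667 over 3 groups of sites, and 2 libraries against 2 cannot give a p under 0.333). The median EVI1 fold enrichment was 10.1 and 9.19 with dox. Both dox values lay below both untreated ones at 32.6% of the 6115 sites, against 35.3% of all EVI1 sites with a peak in the 4 libraries, and above both at 1019, and the median log2 ratio of dox to untreated was -0.17. At the lost distal sites, counting a missing peak as 0, the median EVI1 percentile was 48.6 and 66.2 untreated and 38.5 and 23.3 with dox, a difference of -26.5 whose groups did not overlap (exact permutation p = 0.333, adjusted p = 0.667). For the resistant promoter sites the difference was -4.13 (exact permutation p = 0.667, adjusted p = 0.667). In all 3 groups the rule required an EVI1 peak in both untreated lists, so only a dox percentile could be 0. Part of a drop with dox is therefore built in, most at the lost sites, where more EVI1 peaks were missing with dox. The p-values carry that limit.

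No EVI1 peak was called in either dox library at 51 resistant distal sites. The strongest of them by CTBP2 with dox lay in an intron of TBXAS1 with PARP12 as nearest TSS. CTBP2 there was 60.5 and 30.3 untreated and 15.4 and 15.0 with dox, and EVI1 was 4.48 and 5.77 untreated. Near LPCAT1, a phospholipid acyltransferase, CTBP2 was 53.7 and 34.5 untreated and 16.5 and 10.7 with dox, against EVI1 at 5.74 and 5.58 untreated. Sites near TFDP1, the dimerisation partner of E2F, near MRGPRE and in an intron of NOP14, a ribosome biogenesis factor, completed the 5 strongest, with untreated CTBP2 from 10.4 to 52.1 and untreated EVI1 from 3.54 to 7.72. In each of these 5 the untreated CTBP2 values exceeded the untreated EVI1 values of the same replicate number, and CTBP2 was called in all 4 CTBP2 lists outside the inducible experiment.

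The resistant distal sites were found more often than the lost ones in every list outside the inducible experiment. EVI1 of unmodified MUTZ3 was called at 60.9% of the resistant distal sites (Wilson 95% interval 59.7 to 62.1, counting error only) and at 21.8% of the lost ones, against 39.3% of all CTBP2 sites. CTBP2 of unmodified MUTZ3 was called at 50.7% (49.5 to 52.0) against 10.9% of the lost and 31.2% of all CTBP2 sites. In MOLM1 the shares were 72.8% (71.7 to 73.9) and 47.3%, with 61.9% over all CTBP2 sites. With 4xPLASS they were 10.5% (9.75 to 11.3) and 2.52% in replicate 1, with 13.7% over all CTBP2 sites, and 77.9% (76.9 to 78.9) and 30.6% in replicate 2, with 52.2% over all. The order of the groups was the same in the small and the large 4xPLASS list, although in the small list the resistant share lay below that of all CTBP2 sites, from which the intervals in all 13 lists had not been dropped.

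Over the 4 CTBP2 libraries, which come from 3 kinds of cells, the resistant minus lost difference was 30.2 percentage points ± 17.3 (SD, n = 4 libraries), from 7.97 to 47.3, and positive in 4 of 4 (two-sided exact sign-flip permutation test, p = 0.125, the smallest that 4 libraries allow, adjusted p = 0.25 over 2 comparisons). Within the 5 strength groups every one of these differences was positive, from 4.77 to 44.7 points. Dropping the intervals in all 13 lists could remove resistant sites only, and with them kept the mean difference was 42.1 points. Stronger peaks are found in more lists, and the split by strength in untreated replicate 1 removes that only in part. Resistant promoter sites were found about as often as the distal ones, with 59.1% for EVI1 of unmodified MUTZ3, 45.4% for CTBP2 of unmodified MUTZ3, 84.5% for MOLM1 and 9.60% and 78.9% for 4xPLASS. The distal minus promoter difference was -1.61 points ± 7.23 (SD, n = 4 libraries) and positive in 2 of 4 (exact sign-flip permutation p = 0.75, adjusted p = 0.75), and its sign turned under several other settings.

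Most resistant distal sites recurred outside the inducible experiment. Of the 5 other lists, 2236 sites (35.3%) were in 4, 1787 in 3, 1172 in 2 and 605 in 1, and 7 were in all 5 but lacked an EVI1 peak in a dox library. One of the 7 lay 125368 bp from MYB, a progenitor transcription factor, in an intron of AHI1, with CTBP2 at 7.55 and 38.0 untreated and 11.1 and 27.8 with dox. None of the other lists held the remaining 528 sites (8.33%), against 35.1% of the lost sites and 23.8% of all CTBP2 sites, of which 12.3% were in 4. The strongest of the 528 lay near SPATA31A7, GRAPL and SHOX. Near GRAPL, CTBP2 was 32.2 and 29.7 untreated and 20.9 and 23.2 with dox and EVI1 was 34.3 and 56.1 untreated and 60.3 and 54.3 with dox, a strong site for both proteins.

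Repeated sequence moved with this absence. At 340 of the 528 sites (64.4%) at least 1 of 3 stretches of 32 bases around the summit occurs again in hg19, or the site lies in the pseudoautosomal region at the end of X (PAR1), against 648 of the 5807 sites (11.2%) that were in at least 1 other list. Lost distal sites ran the same way, with 593 of 2509 (23.6%) in no other list against 466 of 4648 (10.0%) in at least 1. PAR1 of X held 53 to 270 peaks in each of the 8 lists of the inducible experiment and 0 in each of the 5 others. Over all resistant distal sites the share in repeated sequence or PAR1 was 15.6%, against 14.8% of the lost and 4.38% of the resistant promoter sites. Without such sites 5347 resistant distal sites were left, found at 65.2% in EVI1 and 54.6% in CTBP2 of unmodified MUTZ3 and at 77.2% in MOLM1. Among sites named here, those near ZFP64, PARP12, MRGPRE, NOP14, TFRC, CEBPB, IGLL1 and GRIN1 have such sequence but are in other lists. Whether the alignment of repeated reads accounts for the absence was not tested.

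The resistant distal sites were spread widely around genes. The summit lay in an intron at 2744 sites (43.3%), between genes at 3301 (52.1%), in a coding exon at 157 and in an untranslated exon at 133. Lost distal sites were alike, with 44.7% in introns and 49.8% between genes. The median distance to the nearest TSS was 23302 bp (interquartile range 8087 to 62858), against 19881 bp at the lost sites, with 968 resistant sites (15.3%) over 100 kb away and 1036 (16.4%) within 5 kb. The median width of the merged intervals was 775 bp, between the 544 bp of lost and the 1247 bp of resistant promoter sites. The CTBP2 and EVI1 summits of untreated replicate 1 lay a median of 42 bp apart at the resistant distal sites, 60 bp at the lost and 65 bp at the promoter sites.

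The limit of 1 kb from a TSS cut through sites of similar strength. The members closest to it were near PPM1J (1005 bp), TMBIM1 (1007 bp) and CCDC71L (1007 bp), with CTBP2 fold enrichment from 3.89 to 20.4 untreated and 3.46 to 7.48 with dox. The sites just inside the limit, which were not members, were near CPT1A (1000 bp), TREM2 (999 bp) and CBL (991 bp), with 9.72 to 19.9 untreated and 4.17 to 8.90 with dox. The weakest members with dox were near LMLN and ADORA2B and in an intron of RP1L1, at 2.15 to 2.71 with dox and 3.41 to 19.4 untreated. The strongest lost sites, near TCF7L2, ATP2B2 and TMEM51, had 15.9 to 19.7 untreated and no peak with dox, so strong sites also lost CTBP2.

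A few genes had many distal EVI1-CTBP2 sites around them, both resistant and lost. In all, 3972 of 19718 protein-coding genes (20.1%) were nearest to at least 1 resistant site, of which 2665 had 1 and 114 had 5 or more. Lost sites were nearest to 4411 genes (22.4%). TMEM121 was nearest to 21 resistant sites of 65 distal EVI1-CTBP2 sites, with 28 lost. The 21 spread over the immunoglobulin heavy chain region, and 11 of them had repeated summit sequence. ID2 had 14 of 37 over a span of 600.2 kb, with 11 lost. ZMIZ1, a PIAS-like coactivator, had 12 of 33, with 13 lost. BCOR, the BCL6 corepressor, had 10 of 32, with 12 lost. CYRIA, a RAC1-binding protein, had 10 of 19, with 6 lost, and HIVEP3 had 10 of 24, with 10 lost. The strongest site near BCOR had CTBP2 at 14.2 and 9.36 untreated and 7.44 and 8.87 with dox, and the strongest within ZMIZ1 15.9 and 10.2 untreated and 8.57 and 9.16 with dox, in both cases with the dox values below the untreated ones.

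Genes of the blood stem cell program were often near a resistant distal site. Of 30 transcription factor genes of blood stem and progenitor cells, 20 had at least 1, with 51 sites in all, against 20.1% of all genes. A lost site was near 20 of them too, against 22.4% of all genes. All 30 had a CTBP2 site of any kind, against 68.3% of all genes. CTBP2 stayed in both dox libraries at 49.2% of their 179 distal EVI1-CTBP2 sites, against 43.4% over all genes, where the shares kept here and in the lists that follow include intervals present in every list. In these lists, the strongest site of a gene is the one with the highest CTBP2 percentile with dox, and the genes shown were picked the same way. That choice favours high dox values, so dox values at or above untreated ones at these sites are a description only. TAL1, a helix-loop-helix factor of blood formation, had 4 resistant sites of 8. The strongest, 9602 bp away (chr1:47706692-47708119), had CTBP2 at 17.1 and 19.5 untreated and 10.4 and 11.2 with dox and EVI1 at 28.1 and 35.3 untreated and 29.9 and 26.8 with dox, so only the CTBP2 groups were apart. ETV6, an ETS repressor, had 6 of 14, with CTBP2 at 4.77 and 10.6 untreated and 10.8 and 11.0 with dox at the strongest. ZFP36L2 had 7 of 20, ERG 4 of 8, GFI1B 2 of 6 and RUNX1 1 of 15, where 6 more of the RUNX1 sites were in every list.

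Of 24 surface and adhesion genes of stem cells, 16 had a resistant site (38 sites), 15 a lost one and 22 a CTBP2 site of any kind. Over all genes these shares were 20.1%, 22.4% and 68.3%. CTBP2 stayed at 51.4% of their distal EVI1-CTBP2 sites. The strongest near ITGA6, an integrin chain, had CTBP2 at 11.8 and 17.3 with dox and at 8.62 in untreated replicate 1, and the other untreated value lay between the dox ones. Near ITGA4, the chain of the integrin VLA-4, it was 15.1 and 25.3 untreated and 12.6 and 9.97 with dox, and near KIT, the stem cell factor receptor, 11.8 and 23.2 untreated and 10.8 and 9.53 with dox, both lower with dox. CD82 had 5 sites, CD34 had 4 of 14 and KIT 3 of 5.

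Of 30 myeloid differentiation genes, 10 had a resistant site (28 sites, 53.5% kept) and 7 a lost one, against 20.1% and 22.4% of all genes. A CTBP2 site of any kind was near 26 of them, against 68.3% of all genes. Strong examples were an intron of CSF2RA, the alpha chain of the GM-CSF receptor, with CTBP2 at 30.4 and 25.6 untreated and 11.6 and 14.5 with dox, and a site near NCF1, a subunit of the NADPH oxidase, with 22.5 and 14.2 untreated and 11.7 and 13.2 with dox. Neither was in any other list, CSF2RA lies in PAR1 and NCF1 has copies. CEBPB had a site with 11.9 and 13.6 untreated and 7.81 and 8.72 with dox. Of 25 erythroid and megakaryocyte genes 8 had a resistant site (12 sites, 42.5% kept), 8 a lost one and 16 a CTBP2 site of any kind. The strongest resistant site was near TFRC, the transferrin receptor, with CTBP2 at 28.3 and 30.1 untreated and 14.9 and 23.6 with dox. A site near EPB42, a red cell membrane protein, was weaker, at 5.67 and 8.90 with dox and 8.33 in untreated replicate 1, with the other untreated value above both dox ones and overlapping groups.

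Genes of the CTBP corepressor complex and its DNA-binding partners were themselves near both resistant and lost sites. Of 28 genes, 14 had a resistant site (38 sites, 38.6% kept, below the 43.4% over all genes) and 15 a lost one (52 sites). Of all genes, 20.1% had a resistant and 22.4% a lost site. A CTBP2 site of any kind was near 27 of the 28, against 68.3% of all genes. Near LCOR, a corepressor that binds CTBP, CTBP2 was 13.5 and 16.4 untreated and 15.7 and 15.4 with dox, with overlapping groups. Near ZEB1 it was 18.2 and 18.0 untreated and 15.0 and 9.61 with dox, and near ZEB2 25.9 and 22.8 untreated and 11.6 and 9.44 with dox, lower in both dox libraries at each. BCOR had 10 sites of 32 and GSE1 6 of 32. Of 28 genes of the TGF-β and SMAD pathway, 11 had a resistant site (29 sites, 45.7% kept) and 10 a lost one. A CTBP2 site of any kind was near 27 of these genes too. SMAD7, an inhibitory SMAD, had 9 resistant sites of 32 and SMAD3 6 of 15. The strongest site within SMAD3 had CTBP2 at 9.11 and 6.89 untreated and 6.07 and 11.2 with dox, while EVI1 was 12.5 and 18.6 untreated and 39.3 and 28.2 with dox, higher in both dox libraries. Near SMURF2, a ubiquitin ligase for SMADs, EVI1 was likewise 13.4 and 18.1 untreated and 35.4 and 31.4 with dox, and near INHBA, an activin subunit, it was 27.2 and 34.4 untreated and 25.2 and 23.4 with dox.

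Genes of other cell types were near resistant distal sites too. CTBP2 stayed at 33.3% of the 69 distal EVI1-CTBP2 sites of 30 lymphoid genes (43.4% over all genes). Of these genes 10 had a resistant site (17 sites) and 16 a lost one. It stayed at 26.7% of the 15 sites of 25 liver and neuron genes, of which 4 had a resistant site (4 sites) and 6 a lost one. Of all genes, 20.1% had a resistant and 22.4% a lost site. A CTBP2 site of any kind was near 25 of the lymphoid and 12 of the liver and neuron genes, against 68.3% of all genes. The lymphoid sites included IGLL1, the surrogate light chain, with 6 resistant sites of 16 and CTBP2 at 20.7 and 23.8 untreated and 13.3 and 15.8 with dox at the strongest, and weaker sites near GNLY and NKG7 at 9.52 to 17.5 untreated and 5.27 to 8.57 with dox. The sites near SERPINA1, GRIN1 and SLC17A7 had 4.29 to 8.55 with dox. The lists differ in how strong their CTBP2 sites were before dox, and the shares of different lists were not tested against each other.

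In sequence, ETS letters were the most frequent of those searched at the resistant distal sites. In the 201 bases around the summit AGGAAG, the core bound by many ETS factors, was present at 54.4% of them, 43.6% of the lost and 35.0% of the resistant promoter sites, and at 42.8% of all CTBP2 sites. The excess over lost sites appeared in each of the 5 strength groups, by 6.09 to 11.1 points. GATA letters (AGATAA) were present at 8.32%, against 6.06% of the lost, 3.09% of the promoter and 5.75% of all sites, and RUNX letters (TGTGGT) at 23.2%, against 20.3%, 8.52% and 18.0%. The ZEB-type E-box CACCTG went the other way, at 22.5% of the resistant and 27.9% of the lost sites (21.1% of promoter and 25.5% of all sites), and was less frequent at resistant sites in each strength group, by 2.88 to 10.3 points. AP-1 letters (TGANTCA) were at 8.57% and CEBP letters (TTGCNNAA) at 7.69% of resistant sites, against 7.45% and 5.77% of lost ones. GC content was close, at a median of 55.7% and 56.7%, while promoter sites had 65.7% and held GC boxes (GGGCGG) in 54.4%, against 16.8% of the resistant distal sites. The E-boxes CAGCTG and CACGTG were at 17.9% and 4.33% of resistant and 18.9% and 4.69% of lost sites, and GATGAG, a core of the site of the second EVI1 zinc finger domain, at 13.1% and 14.1%. The longer EVI1 site of the first zinc finger domain, ACAAGATA, which shares letters with the GATA motif, was at 0.363% of resistant and 0.349% of lost sites, and the shorter core AAGATAA at 1.94% of resistant, 1.31% of lost and 1.37% of all CTBP2 sites. Without repeated sequence the ETS shares were 56.7% and 45.5% and the CACCTG shares 21.3% and 26.7%.

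The resistant distal sites differed widely in the ratio of CTBP2 to EVI1. The 6335 sites were ordered by the mean log2 ratio of CTBP2 to EVI1 fold enrichment in the untreated libraries and divided into 5 groups of 1267, a split made after values had been seen. In the group with the highest ratio (median fold enrichment 10.8 for CTBP2 and 6.68 for EVI1), EVI1 was called with dox at 93.5% and 89.9% of sites, EVI1 of unmodified MUTZ3 at 34.6% and CTBP2 in 4xPLASS replicate 1 at 19.2%. In the group with the lowest ratio (9.46 and 17.7) these shares were 100% and 100%, 82.5% and 8.21%. EVI1 strength enters the ratio, so the EVI1 shares follow it in part. The other CTBP2 lists did not follow 4xPLASS replicate 1, which is the smallest list. Dropping the intervals in all 13 lists removed sites that were both in this list and in EVI1 of unmodified MUTZ3. The rule therefore ties these shares to each other, and the difference in 4xPLASS replicate 1 is not a result of its own. The high-ratio and low-ratio groups gave 77.0% and 81.0% in 4xPLASS replicate 2, 54.1% and 53.0% in CTBP2 of unmodified MUTZ3 and 71.1% and 70.6% in MOLM1. CACCTG was present at 31.8% of the high-ratio and 15.1% of the low-ratio sites, GATA letters at 4.18% and 12.8%, and ETS letters at 50.7% and 52.6%.

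Repeated E-boxes were more frequent at the CTBP2-rich end, for which the ID2, TRAF3IP3 and PARP12 sequences are picked examples. Not every CTBP2-rich site had them, and the one near SPACA7 had no CACCTG in its 201 bases. At 140 resistant distal sites (2.21%) the window held 3 or more CACCTG, up to 13, against 1.15% of the lost, 0.833% of the promoter and 1.96% of all CTBP2 sites. The share was 7.89% in the high-ratio and 0.316% in the low-ratio group, and 17 of the 51 sites without EVI1 in dox (33.3%) had 3 or more, against 1.34% of the sites with EVI1 in both dox libraries. Of these 51 sites, 25 (49.0%) lay in repeated sequence or PAR1, against 15.6% of all resistant distal sites. At the 140 sites the median fold enrichment was 13.3 for CTBP2 and 6.62 for EVI1, and 27.9% were in the EVI1 list of unmodified MUTZ3, against 63.4% of sites with no CACCTG. The CTBP2 lists were divided. The share was 37.9% against 9.70% in 4xPLASS replicate 1, but 50.7% against 79.7% in 4xPLASS replicate 2, 57.9% against 72.8% in MOLM1 and 50.0% against 51.3% in unmodified MUTZ3. These shares leave out the intervals in all 13 lists. Dropping them took the sites with 3 or more CACCTG from 173 to 140 and those with none from 6620 to 4908. Every dropped site was in 4xPLASS replicate 1, so the rule itself shaped the difference in that small list. Among all distal EVI1-CTBP2 sites the share that kept CTBP2 in both dox libraries was 45.1% with no CACCTG, 37.7% with 1, 33.3% with 2 and 54.7% with 3 or more. The order was therefore not the same for single and for clustered E-boxes. Sites with 3 or more were also stronger before dox, at a median untreated CTBP2 fold enrichment of 9.92. It was 7.61 with none, 7.17 with 1 and 7.20 with 2, and the part of strength in the kept shares was not tested. Of the 140 sites 71 (50.7%) had repeated summit sequence, and without such sites the kept share was 50.0% of 170 with 3 or more and 45.5% with none. The letters are a description, and which protein was bound there was not tested.

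**Figure D3:**
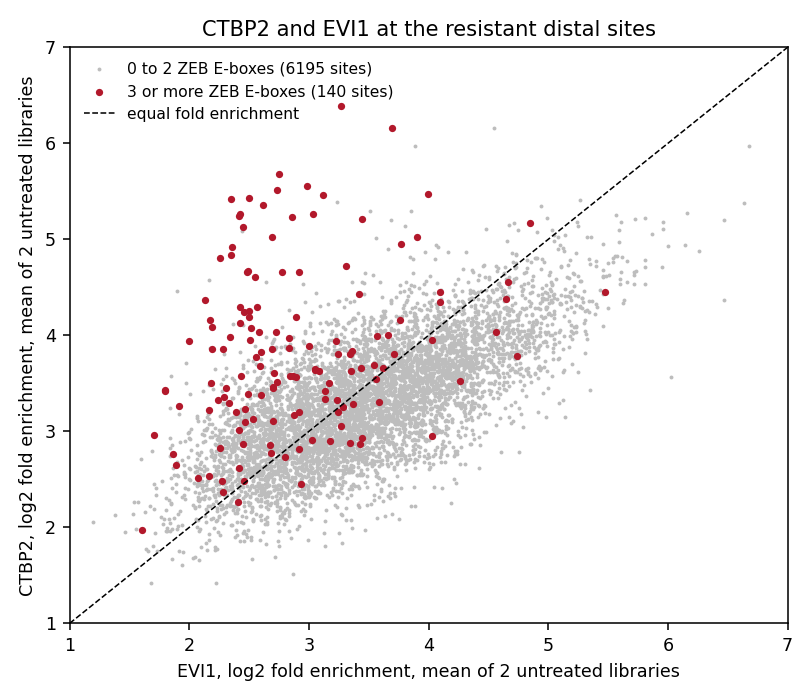
Each point is a resistant distal site, placed by the mean log2 fold enrichment of the 2 untreated EVI1 libraries (horizontal) and the 2 untreated CTBP2 libraries (vertical), with sites that have 3 or more CACCTG in 201 bases in red and the dashed line at equal enrichment. The 140 red sites lie mostly above the line, and the others scatter along it.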

How the data were processed

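Chromatin immunoprecipitation with sequencing of CTBP2 and EVI1 was analysed from 13 peak lists, 1 per library. Of 31 samples in the study, the others were not analysed here. The authors made base calls with bcl2fastq (1.8.4), aligned reads to hg19 with Bowtie (1.1.1) and called peaks per library against a matched input with MACS2 (2.1.2), per the labels and the study's methods. The deposited lists give for each peak a display score, which was not used, the fold enrichment as a linear ratio over input, −log10 of the p-value and of the q-value, and the summit. No read totals are in these lists, so depth is unknown and no count test could be run. Inducible libraries shared 1 input per treatment.

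Peaks overlapping by 1 bp or more were matched in Python (3.11.15) with numpy (2.4.6) and scipy (1.17.1), and overlaps were checked with bedtools (2.31.1). A transcript start of any of 19744 protein-coding genes in GENCODE 44 placed on hg19 (70781 starts) counted as a TSS; this reading of the rule was settled after counts under several definitions had been seen. On sequences with no such start, 347 EVI1-CTBP2 sites, 115 of them with CTBP2 in both dox lists, could not be placed and were left out. Sequences were read with pysam (0.24.0). The script was tested on simulated data of 20000 sites, and found the 3879 members that had been put in.

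The sites, gene lists and motifs were chosen with earlier results of these data known. Named were the 10 strongest sites with dox, the 5 genes with the most sites, up to 3 genes per list, the sites beside the TSS limit, the weakest, up to 5 without EVI1 with dox, 3 in no other list and 3 lost ones, and 1 site chosen by this rule is not reported here. Tests were exact permutations over libraries. The labels do not say that replicates are separate cultures, so p-values cover only the spread between libraries. The ratio groups, the number of E-boxes and the check for repeated sequence were added after values had been seen. Alternatives were stricter peaks, lists of equal size, summit distance, other TSS definitions and limits, other motif windows and leaving out each library.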

Additional observations from a re-analysis of the deposited data

Results flagged for a closer look

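Among the CTBP2 libraries outside the inducible experiment, the share of resistant distal minus the share of resistant promoter sites had opposite signs in unmodified MUTZ3 and MOLM1. It was 5.31 percentage points in unmodified MUTZ3 and -11.7 points in MOLM1, with 1 library each, so the difference between the lines was not tested. In the MUTZ3 libraries with 4xPLASS it was 0.881 and -0.931 points, so MUTZ3 cells gave both signs. The libraries of unmodified MUTZ3 and MOLM1 also differ in crosslinking, single for MUTZ3 and DSG for MOLM1 by their labels. They differ in list size too, 16836 against 64569 peaks, and these cannot be told apart from the cell line.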

How the results depend on the processing

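The number of resistant distal sites was 3218 with peaks of at least 5-fold enrichment and 4194 with inducible lists cut to equal size. It was 6331 to 6684 without 1 of the EVI1 or untreated CTBP2 libraries. Without a dox CTBP2 library it was 8073 and 8407, where a peak in the remaining dox library was enough. The share of distal EVI1-CTBP2 sites kept in both dox libraries was 39.0% with −log10 q of at least 5, 34.5% at 5-fold and 66.6% with equal list sizes. It was 35.2% to 43.4% without 1 of the EVI1 or untreated CTBP2 libraries. Without a dox CTBP2 library the share kept in the remaining one was 52.6% and 54.2%. The share kept therefore depends on which peaks and libraries were counted. The share with EVI1 in dox was 96.8% at 5-fold, 96.3% with summits within 200 bp and 96.4% to 98.3% without 1 library. The distal minus promoter difference in other lists turned positive with −log10 q of at least 5 (1.52), at 5-fold (3.50), with summits within 200 bp (0.996), with intervals in all 13 lists kept (2.17), without repeated sequence (0.708, chosen after seeing the data) and without MOLM1 (1.75), and ran from -3.92 to 1.75 without 1 library. The resistant minus lost difference stayed positive in 26 of 26 alternatives and ran from 21.7 to 37.6 without 1 library. With windows of 50 bp on each side the motif shares were 34.9% for ETS, 3.76% for GATA, 13.6% for the ZEB E-box and 13.6% for RUNX, and centred on the summit of dox replicate 1 they were 56.8%, 9.14%, 19.9% and 24.5%.

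The EVI1 percentile difference was -4.45 to -0.093 without 1 library. With the replicate number as a block it was -2.01, and with the numbers crossed, a pairing added after seeing the data, also -2.01, and neither fit made a call. Across sites, replicate 1 minus 2 correlated at -0.32 between EVI1 untreated and dox and at 0.16 between CTBP2 untreated and dox, at -0.49 between CTBP2 and EVI1 untreated and at 0.13 between them with dox. The negative values would also arise if numbers were crossed between groups, so the numbers were not taken to pair the samples. The causes of these shifts were not tested. Unknown depth limits every statement that a peak was missing.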
